A study of Mus musculus with 4 samples.

Results

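The Serpinb genes of mouse chromosome 13 were followed through mammary fibroblasts with and without Ets2. The 6 members were Serpinb1a, Serpinb1b, Serpinb6a, Serpinb6b, Serpinb9 and Serpinb9b. They were measured by 7 probe sets, those to which the platform annotation gives one of these symbols and no other, among 20393 probe sets of 1 gene and 12394 genes in all. Serpinb1a had 2 probe sets and every other member 1, and 0 further probe sets listed a member beside other genes. The members were selected on these same levels, because several of them differed between the Ets2-null and the Ets2-present arrays, so their levels and differences are a description and no test of them is given.

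Each of the 4 arrays carried RNA of cultured primary mammary fibroblasts from FVB/N mice 9 weeks old, and each was the only array of its group. The PyMT Ets2-null group had the genotype PyMT;Fsp-cre;Ets2db/loxP, and the PyMT Ets2-present group PyMT;Ets2db/loxP. The normal Ets2-null group was Fsp-cre;Ets2db/loxP and the normal Ets2-present group Ets2db/loxP. All 4 groups thus carried the Ets2db allele, a conventional knockout of the DNA-binding domain, and the Ets2-present cells had only the loxP copy intact. Cre was driven by the promoter of fibroblast specific protein, and only the Ets2-null groups had it, so effects of Cre and of Ets2 loss cannot be told apart. PyMT is a viral oncogene expressed in the mammary epithelium and not in the fibroblasts themselves. The cells were used at the second passage, and the sources used here do not say how many mice gave RNA to an array. Without replicates no SD, interval or p-value can be given, and every difference is one between single arrays.

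Serpins are protease inhibitors that offer a protease an exposed loop as bait, are cut, and trap the enzyme in a dead complex. Those of clade B, named Serpinb in the mouse, lack a classical secretion signal and act mainly inside the cell. There they protect the cytoplasm from proteases that leak out of granules and lysosomes or are delivered by killer cells. In the mouse the clade lies in a cluster on chromosome 13 and another on chromosome 1, and the chromosome 13 cluster has expanded, so that a single human gene corresponds to several mouse copies. The copies are alike in sequence, and signal from one can reach the probes of another.

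Ets2 had 1 probe set, with log2 levels of 11.22 (PyMT Ets2-null), 11.21 (PyMT Ets2-present), 11.89 (normal Ets2-null) and 11.86 (normal Ets2-present). The sources used here do not place that probe set inside or outside the deleted part of the gene, so it is no check of the deletion. The paper itself reports loss of ETS2 protein, by Western blot, and of phospho-Ets2 staining in fibroblasts of the PyMT Ets2-null genotype. Levels are log2 units of RMA, a method that corrects background, normalizes the arrays and summarizes the probes of a probe set. The array medians lay between 5.63 and 5.74 and correlations between arrays over all probe sets between 0.959 and 0.985. The 3 lowest of these correlations all involved the PyMT Ets2-null array (0.959, 0.965 and 0.969). A level of 4.63, the 40th percentile of the whole table, is used below as a mark for weak signal.

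Serpinb1a, the mouse counterpart of the human inhibitor of neutrophil elastase, cathepsin G and proteinase 3, was high in both Ets2-null cultures. Its probe set 1416318_at read 8.26 in PyMT Ets2-null and 5.12 in PyMT Ets2-present fibroblasts, and 8.34 in normal Ets2-null and 6.18 in normal Ets2-present fibroblasts. The 2 Ets2-null levels lay within 0.08 of each other, while the Ets2-present levels were 1.06 apart. The gene was thus 8.84-fold higher without Ets2 in PyMT fibroblasts and 4.49-fold higher in normal fibroblasts. The second probe set, 1448301_s_at, read 7.56 in PyMT Ets2-null and 4.46 in PyMT Ets2-present fibroblasts, and 7.76 in normal Ets2-null and 5.55 in normal Ets2-present fibroblasts. It gave 8.54-fold and 4.64-fold, so the probe sets disagreed by 0.05 log2 units in either Ets2 difference. By the naming of the array, the ending _s_at marks probes that match more than one transcript.

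Serpinb1b, a close copy of Serpinb1a, followed another pattern and gave a weak signal. It read 4.69 in PyMT Ets2-null and 4.41 in PyMT Ets2-present fibroblasts, and 5.48 in normal Ets2-null and 3.81 in normal Ets2-present fibroblasts. Only the normal Ets2-null level stood clearly above the mark for weak signal, and both Ets2-present levels were under it. Its Ets2 difference was 1.67 in normal fibroblasts (3.18-fold) and 0.27 in PyMT fibroblasts. With levels under the mark raised to it, the difference in normal fibroblasts was 0.845 and that in PyMT fibroblasts 0.05.

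Serpinb6b was highest in the PyMT Ets2-null culture. Its level was 9.84 there and 6.62 in PyMT Ets2-present fibroblasts, and 7.45 in normal Ets2-null and 6.39 in normal Ets2-present fibroblasts. The 2 Ets2-present levels were close, 0.22 apart, and both Ets2-null levels lay above them. The difference was 9.32-fold in PyMT fibroblasts and 2.08-fold in normal fibroblasts. In contrast, its relative Serpinb6a, the mouse counterpart of the human inhibitor that acts on cathepsin G and trypsin-like proteases, varied least of all members. Serpinb6a read 11.61 in PyMT Ets2-null and 11.26 in PyMT Ets2-present fibroblasts, and 10.94 in normal Ets2-null and 11.38 in normal Ets2-present fibroblasts. The most distant of its 4 levels, those of the PyMT and the normal Ets2-null cultures, lay 0.66 log2 units apart.

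Serpinb9, the inhibitor of granzyme B that shields lymphocytes and dendritic cells from their own or neighbouring granules, was higher in both Ets2-null cultures by a smaller step. Its level was 9.41 in PyMT Ets2-null and 7.66 in PyMT Ets2-present fibroblasts, and 8.69 in normal Ets2-null and 7.81 in normal Ets2-present fibroblasts. That is 3.36-fold in PyMT and 1.84-fold in normal fibroblasts. Serpinb9b, known in the mouse as an inhibitor of granzyme M, read 8.73 in PyMT Ets2-null and 6.84 in PyMT Ets2-present fibroblasts, and 6.20 in normal Ets2-null and 6.98 in normal Ets2-present fibroblasts. It was therefore 3.71-fold higher without Ets2 in PyMT fibroblasts and 1.72-fold lower without Ets2 in normal fibroblasts.

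**Figure D1:**
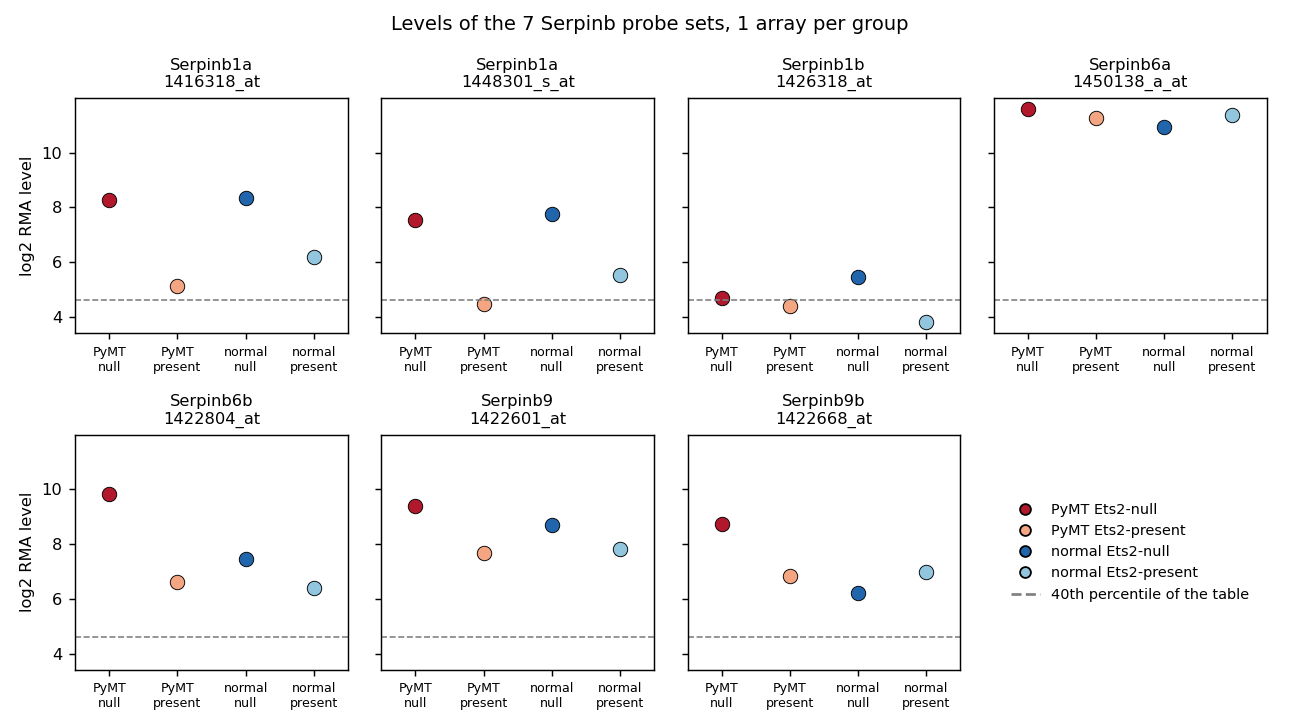
Log2 RMA level (vertical axis) of the 7 probe sets in the 4 arrays (horizontal axis, 1 point per array), with a dashed line at 4.63, the 40th percentile of the table. Serpinb1a is high in both Ets2-null arrays in either probe set, Serpinb6b and Serpinb9b are highest in the PyMT Ets2-null array, and Serpinb6a lies between 10.94 and 11.61 throughout.

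For 5 of the 6 members RefSeq promoter windows were at hand on build GRCm38.p6, each of 300 bases from 250 before to 50 after a transcript start. Serpinb1a had no entry. Of the windows, 4 are shown because the genes behave differently: Serpinb6b, Serpinb9 and Serpinb9b, higher without Ets2 in PyMT fibroblasts, and Serpinb6a, nearly level. They are written 5′ to 3′ on the strand of the gene, and capitals mark the core letters that ETS factors bind, GGAA or on the other strand TTCC. The Serpinb6b window (chr13:32965011-32965310, plus strand) is followed by those of Serpinb9 (chr13:33004291-33004590, plus strand), Serpinb9b (chr13:33027164-33027463, plus strand) and the upstream start of Serpinb6a (chr13:34002745-34003044, minus strand).
Serpinb6b: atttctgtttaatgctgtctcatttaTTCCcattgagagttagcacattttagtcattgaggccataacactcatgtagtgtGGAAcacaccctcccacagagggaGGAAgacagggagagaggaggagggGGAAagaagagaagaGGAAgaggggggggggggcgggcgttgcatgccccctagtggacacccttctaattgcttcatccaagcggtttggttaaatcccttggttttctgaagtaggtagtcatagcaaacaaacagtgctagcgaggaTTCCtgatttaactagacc
Serpinb9: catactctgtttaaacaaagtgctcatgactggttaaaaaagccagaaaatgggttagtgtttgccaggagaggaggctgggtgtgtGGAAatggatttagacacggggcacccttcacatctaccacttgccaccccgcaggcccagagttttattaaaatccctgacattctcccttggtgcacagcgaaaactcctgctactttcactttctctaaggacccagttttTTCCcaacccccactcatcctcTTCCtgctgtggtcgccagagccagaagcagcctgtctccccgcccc
Serpinb9b: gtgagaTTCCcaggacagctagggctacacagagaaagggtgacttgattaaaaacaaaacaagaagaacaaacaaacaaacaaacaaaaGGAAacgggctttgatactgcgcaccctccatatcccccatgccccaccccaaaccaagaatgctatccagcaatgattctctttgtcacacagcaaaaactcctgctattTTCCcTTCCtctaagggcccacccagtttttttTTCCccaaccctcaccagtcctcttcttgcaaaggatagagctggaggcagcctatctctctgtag
Serpinb6a: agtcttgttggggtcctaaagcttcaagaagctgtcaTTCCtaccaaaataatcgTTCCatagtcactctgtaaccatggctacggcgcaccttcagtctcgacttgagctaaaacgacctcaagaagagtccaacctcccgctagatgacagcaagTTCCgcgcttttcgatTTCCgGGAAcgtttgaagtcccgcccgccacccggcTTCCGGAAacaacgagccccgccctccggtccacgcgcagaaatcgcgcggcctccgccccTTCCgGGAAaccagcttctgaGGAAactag

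The core was found 6 times in the Serpinb6b window, 3 times in Serpinb9, 5 times in Serpinb9b and 7 times in the window of Serpinb1b, which is not shown. It was found 10 times at the upstream start of Serpinb6a and 3 times at its other start. Such a match is common, since 96.0% of 32851 promoter windows of this length held at least 1 core, with a median of 3. The longer motif CCGGAA, searched on both strands with overlapping matches counted, was present only at the upstream start of Serpinb6a (4 matches), and 14.9% of all windows held it. The interferon response element, searched on both strands as a pair of GAAA runs 2 bases apart, matched once in Serpinb9 and once at the upstream start of Serpinb6a, where 3.44% of all windows held it. TGANTCA, the AP-1 site, was in 0 of the member windows and in 7.81% of all, and TATAAA in 0 and 13.6%. The windows of Serpinb9 and Serpinb9b were the most alike, identical at 186 of 276 aligned bases (67.4%), whereas the other pairs ranged from 54.8% to 65.6%.

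The study listed RT-PCR primers for Serpinb1a and Serpinb6b. According to the paper, RT-PCR verified most of its array changes in independent RNA of tumor fibroblasts. Its text does not give the outcome for either gene. The left primers share a run of 13 bases, in capitals. The right primers share no run longer than 5 bases. A run shared by primers does not measure how alike the genes are.
Serpinb1a left: tgctgGTGAATGCCATCTact
Serpinb6b left: ggtccttGTGAATGCCATCT
Serpinb1a right: tcttcactgtttttgtgtctttcc
Serpinb6b right: tgcacaggtttcaccacatc

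To set the members beside the rest of the genome, each gene took the level of its brightest probe set on average, with no filter on level. In PyMT fibroblasts 6 of 6 members were higher without Ets2, against 54.3% of all genes, with a median log2 difference of 1.82, where the median over all genes was 0.06. At least 2-fold higher were 4 of the 6 (Serpinb6b, Serpinb1a, Serpinb9b and Serpinb9), against 8.3% of all genes, and 0 were 2-fold lower, against 6.62%. At least 4-fold higher were 2 of the 6, against 0.5% of all genes. Serpinb6b and Serpinb1a ranked 5 and 6 from the top of 12394 genes, Serpinb9b 91 and Serpinb9 145. Serpinb6a and Serpinb1b lay within the bulk, above 68.8% and 64.7% of genes.

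In normal fibroblasts 4 of 6 members were higher without Ets2, against 47.9% of all genes, and the median was 0.97, against -0.02 over all genes. At least 2-fold higher were 3 of the 6 (Serpinb1a, Serpinb1b and Serpinb6b), against 3.08% of all genes, and 0 were 2-fold lower, against 2.73%. Serpinb1a ranked 16 from the top, Serpinb1b 56 and Serpinb6b 328, while Serpinb9 (0.88) was under 2-fold. Serpinb9b and Serpinb6a had negative differences (-0.78 and -0.44), with 5.39% and 14.6% of genes below them. These counts and ranks come from the contrasts by which the members were picked, and nothing is read from them beyond the values. The one measure of spread at hand is how far 2 probe sets of the same gene differ on the same arrays. Over the 2984 genes whose second-brightest probe set averaged at or above the mark, its SD was 0.60 log2 units in the PyMT Ets2 difference. In normal fibroblasts it was 0.42. The differences of Serpinb6a (0.34 in PyMT, -0.44 in normal) and of Serpinb1b in PyMT fibroblasts were of that size or smaller, while those of Serpinb1a were larger, at 3.14 and 2.17. That SD does not cover the spread between cultures.

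**Figure D2:**
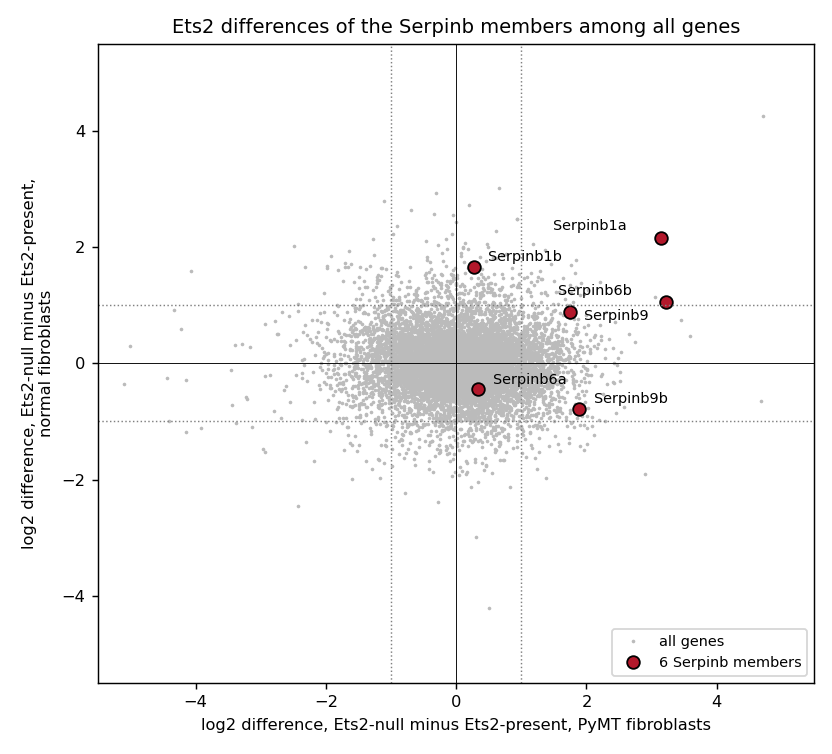
Ets2-null minus Ets2-present level (log2 units) in PyMT (horizontal axis) and normal (vertical axis) cultures for all 12394 genes (grey points) and the 6 members (red points), with dotted lines at 2-fold. Serpinb1a and Serpinb6b are past 2-fold in both, Serpinb1b in normal fibroblasts alone and Serpinb9 and Serpinb9b in PyMT fibroblasts alone.

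Between PyMT and normal Ets2-present fibroblasts most members differed little. The median of PyMT minus normal was -0.13 over the members and -0.01 over all genes. Serpinb1a was 2.08-fold lower in PyMT Ets2-present cells, 5.12 against 6.18, and was the single member past 2-fold, where 5.57% of all genes were 2-fold lower. Its second probe set gave 2.13-fold. No member was 2-fold higher, against 5.28% of all genes, and Serpinb6a, Serpinb6b, Serpinb9 and Serpinb9b were within 0.22 log2 units of their normal level. Serpinb1b was 0.60 higher in PyMT, with both levels under the mark.

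In Ets2-null fibroblasts PyMT and normal cultures differed more. Serpinb9b was 5.78-fold higher in PyMT Ets2-null than in normal Ets2-null cells and Serpinb6b 5.24-fold, making 2 of 6 members at least 2-fold higher, against 9.8% of all genes. Serpinb9 (0.72) and Serpinb6a (0.66) were higher by less than 2-fold. Serpinb1a was level (-0.08), and Serpinb1b was lower (-0.79), so 0 members were 2-fold lower, against 8.73% of all genes. The median was 0.69 over the members and 0.10 over all genes. This comparison and those above share arrays, so the values of a member are not independent of each other: the PyMT Ets2-null array enters both the Ets2 difference in PyMT fibroblasts and this one.

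Subtracting the Ets2 difference in normal fibroblasts from that in PyMT fibroblasts separates the members. Serpinb9b had 2.67 and Serpinb6b 2.165, and 2 of 6 members were at least 2-fold higher, against 12.1% of all genes. Serpinb1a (0.98), Serpinb9 (0.87) and Serpinb6a (0.78) were close to 1 unit, and Serpinb1b had -1.39, as the 1 member of 6 that was at least 2-fold lower, against 10.2% of all genes. With levels under the mark raised to it, that value was -0.79 and no longer past 2-fold. The SD between probe sets of a gene, over the same 2984 genes, was 0.76 for this double difference. Both probe sets of Serpinb1a gave values under 1 (0.98 and 0.88).

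The order of the genes on the chromosome shows which members lie together. Of 16 protein-coding Serpinb genes from Serpinb1a to Serpinb6a in the annotation, 9 had a probe set of their own. The order begins Serpinb1a, Serpinb1c, Serpinb6b, Serpinb9, Serpinb9b, Serpinb1b, and Serpinb6a closes the cluster at the other end. The 4 members at least 2-fold higher in PyMT Ets2-null fibroblasts were thus consecutive among the measured genes, while Serpinb1c, between the first 2 of them, was not measured. In normal fibroblasts those past 2-fold (Serpinb1a, Serpinb6b and Serpinb1b) were not consecutive. There Serpinb9 (0.88) and Serpinb9b (-0.78) lie between Serpinb6b and Serpinb1b. Since the members were picked on these differences, their order is a description and was not tested. The other Serpinb genes measured on this chromosome were weak. Serpinb9c, Serpinb9g and Serpinb6c read between 2.79 and 4.45 over the 4 arrays in their brighter probe sets, under the mark, and their Ets2 differences ran from -0.05 to 0.37 in PyMT and from 0.01 to 0.23 in normal fibroblasts. These were 3 of 10 listed genes, with medians of 0.14 and 0.16 and 0 of 3 past 2-fold in either kind of culture. A probe set shared by 4 genes (Serpinb9e, Serpinb9f, Serpinb9g and Serpinb9h) was under the mark as well.

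Genes around the cluster that encode no serpin were compared as well. Of 20 listed neighbours 16 were measured, and in PyMT fibroblasts 0 of 16 were 2-fold higher or lower without Ets2. Over all genes 8.3% were 2-fold higher and 6.62% lower in that difference, and 3.08% and 2.73% in normal fibroblasts. These shares also stand beside the counts of the other gene and marker lists. Counts in lists this short were not tested. Their median was 0.22, with Foxc1, a forkhead transcription factor, highest (0.74) and Irf4, a transcription factor of lymphocytes, lowest (-0.91). Wrnip1 and Nqo2, which adjoin Serpinb1a and Serpinb6a, had -0.12 and 0.58 (Nqo2 is named for its place). In normal fibroblasts 2 of 16 were 2-fold higher, Irf4 (1.58) and the forkhead gene Foxq1 (1.53), with a median of 0.18 and Wrnip1 lowest (-0.73). Irf4 was under the mark for weak signal on all 4 arrays. The 12 protein-coding genes on each side of the cluster, plotted in chromosome order, make a slightly different set, of which 16 of 24 were also measured. In that set 0 of 16 were past 2-fold in PyMT fibroblasts, while in normal fibroblasts 2 were higher and 1 was lower, 4933417A18Rik (-1.06), whose 4 levels were under the mark.

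**Figure D3:**
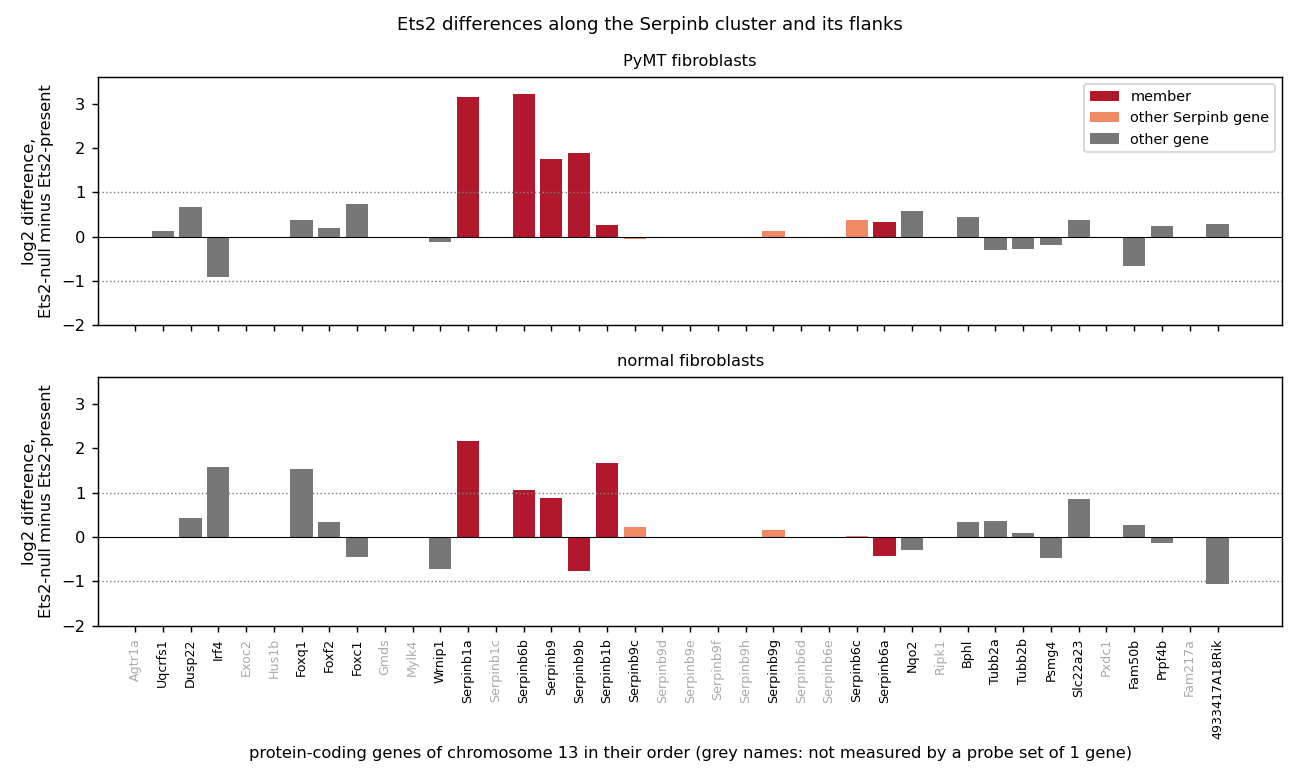
Ets2-null minus Ets2-present level in log2 units (vertical axis) in PyMT (top) and normal (bottom) cultures for protein-coding genes of chromosome 13 in their order (horizontal axis), with 12 genes on each side of the cluster, dotted lines at 2-fold and grey names for genes not measured. In PyMT fibroblasts the bars past 2-fold are Serpinb1a (3.14), Serpinb6b (3.22), Serpinb9 (1.75) and Serpinb9b (1.89). In normal fibroblasts they are Serpinb1a (2.17), Serpinb6b (1.06), Serpinb1b (1.67), Irf4 (1.58), Foxq1 (1.53) and, lower, 4933417A18Rik (-1.06).

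The clade B serpins of chromosome 1 were measured for 5 of 12 genes, and 0 of 5 were 2-fold higher without Ets2 in PyMT fibroblasts (median -0.46). Serpinb2, an inhibitor of plasminogen activators, was lowest at -5.01, and Serpinb11 highest at 0.80. In normal fibroblasts Serpinb8 was 1.48 and Serpinb11 -1.32, with a median of 0.29, but apart from Serpinb2 in PyMT Ets2-present fibroblasts (8.88) most of these levels were weak. Secreted serpins were measured for 14 of 24 genes. In PyMT fibroblasts 2 of 14 were 2-fold higher without Ets2 (median 0.06), with Serpina3n, an acute-phase inhibitor that blocks granzyme B in the mouse, highest at 2.22 and Serpina1b lowest at -0.75. In normal fibroblasts 1 of 14 was (Serpini1, 1.07), with a median of -0.04, and Serpina10 lowest (-0.47). Abundant fibroblast serpins, among them Serpinf1 (-0.045 in PyMT, 0.002 in normal) and the collagen chaperone Serpinh1 (0.157 in PyMT, -0.105 in normal), differed by less; this pair was picked with its values in view.

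The proteases that serpins of this clade are known to meet were mostly weak here, with a mean at or above the mark for 4 of 17 leukocyte serine proteases. Of these 17 genes, 5 were 2-fold lower and 1 was 2-fold higher without Ets2 in PyMT fibroblasts (median 0.13). Gzmd, a granzyme, was lowest (-4.44) and Mcpt4, a mast cell chymase, highest (1.75), with all 4 Mcpt4 levels under the mark. In normal fibroblasts 4 of 17 were 2-fold lower and 0 higher (median -0.24), from Gzmk (-1.67) to Gzmf (0.77). The best-known targets gave weak signal on all 4 arrays: neutrophil elastase (Elane) read between 2.66 and 3.06, cathepsin G (Ctsg) between 2.19 and 3.49, Gzmb between 2.50 and 3.37, and Gzmm between 2.70 and 3.02. They were singled out with their values in view. The 4 proteases with a mean at or above the mark were Gzmc, Gzmd, Gzme and Mcpt8. Gzme read 7.26 in PyMT Ets2-null and 10.49 in PyMT Ets2-present fibroblasts. On the same arrays, in the same order, Gzmd read 4.64 and 9.08, Mcpt8 4.49 and 8.64, and Gzmc 3.69 and 5.63. The gaps were smaller between normal Ets2-null and normal Ets2-present fibroblasts. There Gzme read 7.96 and 8.54, Gzmd 6.645 and 6.895, Mcpt8 6.09 and 7.27, and Gzmc 4.275 and 5.445. Both Ets2-null levels of Gzmc and the PyMT Ets2-null level of Mcpt8 were under the mark.

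Lysosomal cathepsins and inflammatory caspases were all above the mark on average (14 of 14 measured). In PyMT fibroblasts 2 of 14 were 2-fold higher without Ets2 and 0 lower, with a median of 0.03. Casp1, the caspase that matures interleukin-1 beta, was highest at 1.504 and Ctsf lowest at -0.80. In normal fibroblasts Casp1 was again highest (1.42) and the one gene of 14 past 2-fold, with Ctsh lowest (-0.86) and a median of 0.05. Casp1 read 8.14 in PyMT Ets2-null and 6.64 in PyMT Ets2-present fibroblasts, and 6.99 in normal Ets2-null and 5.57 in normal Ets2-present fibroblasts. Its level was thus higher in the Ets2-null culture of either kind, as were those of Serpinb1a, Serpinb1b, Serpinb6b and Serpinb9. The same held in this list for Casp4 (0.63 in PyMT, 0.6 in normal) and Ctsz (0.07 in PyMT, 0.17 in normal). Such a direction is common, since 54.3% of all genes were higher without Ets2 in PyMT and 47.9% in normal fibroblasts.

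**Figure D4:**
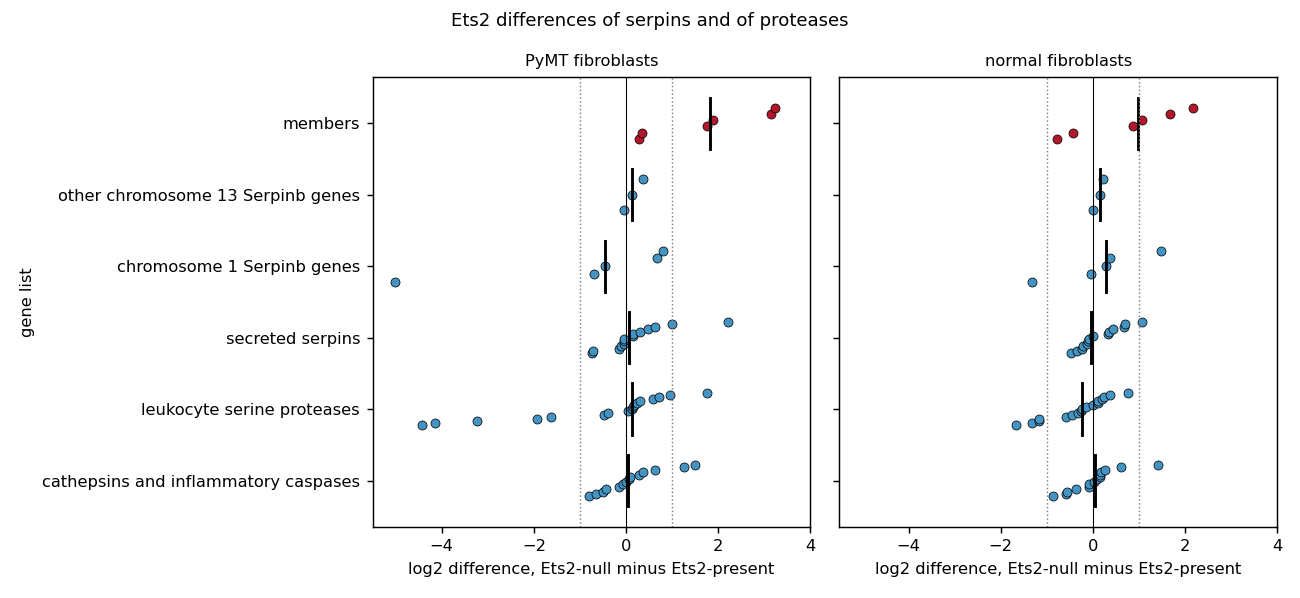
Ets2-null minus Ets2-present level in log2 units (horizontal axis) in PyMT (left) and normal (right) cultures for the genes of 6 lists (vertical axis), 1 point per gene, with the median as a black bar and dotted lines at 2-fold. The members have medians of 1.82 and 0.97, while those of the other 5 lists lie between -0.46 and 0.29.

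The genes whose profile over the 4 arrays lay nearest to that of a member were sought among 7795 genes with a mean at or above the mark. The measure was the root mean square distance between log2 profiles, each centred on its own mean. Nearest to Serpinb1a were Ppp1r3c (0.37), a subunit that directs a phosphatase to glycogen, the prostaglandin-degrading Hpgd (0.50), Moxd1 (0.55), the phosphodiesterase Pde1a (0.60) and the matrix proteoglycan Omd (0.61). Nearest to Serpinb6b were Ifit3 (0.33), Aox1 (0.44), Banp (0.44), Ifit1 (0.48) and Angpt2 (0.48). Of these, Ifit3 and Ifit1 are interferon-induced, Aox1 is an aldehyde oxidase and Angpt2 the vessel-destabilizing angiopoietin-2. Other members were farther away: the member nearest to Serpinb1a was Serpinb9 (0.80), and the distance between Serpinb1a and Serpinb6b was 1.02. The genes named as nearest to Serpinb1a were all under the mark in PyMT Ets2-present fibroblasts, from Omd (3.58) to Moxd1 (4.33). Of those nearest to Serpinb6b, Ifit3 was above the mark in PyMT Ets2-null fibroblasts alone (6.79). Angpt2 was under it in normal Ets2-present fibroblasts (4.54), while Aox1, Banp and Ifit1 were above it on every array. A profile over 4 arrays holds few points, and many genes can lie close to it.

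Markers of other cells were read on the same arrays, because Serpinb9 and Serpinb1a are well known from leukocytes. All 11 fibroblast markers were above the mark on every array. Their linear levels summed to 51527 in PyMT Ets2-null and 41745 in PyMT Ets2-present fibroblasts, and to 54377 in normal Ets2-null and 49781 in normal Ets2-present fibroblasts. The mean of their log2 levels ran the other way in PyMT fibroblasts, at 10.62 in Ets2-null and 10.78 in Ets2-present cells. In PyMT fibroblasts 1 of 11 was at least 2-fold higher without Ets2, the growth factor receptor Pdgfra (1.41), and 2 were lower, the protease Fap (-2.37) and the surface protein Thy1 (-1.25). In normal fibroblasts 1 was higher, the matrix proteoglycan Lum (2.36), and 0 lower, with Fap lowest (-0.98).

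The 10 macrophage markers summed to 825 in PyMT Ets2-null and 1186 in PyMT Ets2-present fibroblasts, and to 407 in normal Ets2-null and 478 in normal Ets2-present fibroblasts. Lysozyme (Lyz2) made up much of these sums. Without it they were 281 in PyMT Ets2-null and 625 in PyMT Ets2-present fibroblasts, and 269 in normal Ets2-null and 309.7 in normal Ets2-present fibroblasts. The genes did not all run one way. In PyMT fibroblasts 4 of 10 were at least 2-fold lower without Ets2, with the scavenger receptor Msr1 lowest (-2.28), and 3 of 10 had values above 0, Itgam (0.61), Ptprc (0.59) and Fcer1g (0.05). In normal fibroblasts 0 of 10 were past 2-fold, from Mrc1 (-0.63) to Cd68 (0.66). Of the 10, 5 were under the mark in PyMT Ets2-null and 3 in PyMT Ets2-present fibroblasts, and 4 in normal Ets2-null and 5 in normal Ets2-present fibroblasts.

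Some epithelial markers were highest on the array where Serpinb6b, Serpinb9 and Serpinb9b were highest, but Krt18, Krt8 and Krt5 were not. In PyMT fibroblasts 2 of 8 were at least 2-fold higher without Ets2, Krt14 (2.43) and Epcam (1.42), with a median of 0.39 and Krt5 lowest (-0.29). Krt14 read 4.85 in PyMT Ets2-null and 2.42 in PyMT Ets2-present fibroblasts, and Epcam 5.09 in PyMT Ets2-null and 3.67 in PyMT Ets2-present fibroblasts. In normal fibroblasts 0 of 8 were higher and 1 was lower, Krt18 (-1.33), with a median of -0.09. The list summed to 177 in PyMT Ets2-null and 129 in PyMT Ets2-present fibroblasts, and to 191 in normal Ets2-null and 353 in normal Ets2-present fibroblasts, with from 5 to 7 of 8 under the mark on an array. Krt18 read 4.49 in PyMT Ets2-null and 4.23 in PyMT Ets2-present fibroblasts, and 6.72 in normal Ets2-null and 8.05 in normal Ets2-present fibroblasts. It set the order of these sums. Without it they were 154 in PyMT Ets2-null and 111 in PyMT Ets2-present fibroblasts. The normal sums without Krt18 were 85.9 in Ets2-null and 87.7 in Ets2-present cells, so the PyMT Ets2-null array was then highest.

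Mast cell markers summed to 155 in PyMT Ets2-null and 495 in PyMT Ets2-present fibroblasts, and to 161 in normal Ets2-null and 257 in normal Ets2-present fibroblasts. A single gene, Mcpt8, carried these differences. The other 9 summed to 132 in PyMT Ets2-null and 96.5 in PyMT Ets2-present fibroblasts, and to 93.0 in normal Ets2-null and 103 in normal Ets2-present fibroblasts. In PyMT fibroblasts 2 of 10 were at least 2-fold higher without Ets2 and 1 was lower (Mcpt8, -4.15), and 8 or 9 of 10 were under the mark on an array. Several genes of this list are also among the leukocyte proteases.

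Neutrophil markers summed to 82.1 in PyMT Ets2-null and 106 in PyMT Ets2-present fibroblasts, and to 79.4 in normal Ets2-null and 60.6 in normal Ets2-present fibroblasts. Here too 1 gene, Camp, set the direction in PyMT fibroblasts, where the other 8 summed to 75.5 in Ets2-null and 72.1 in Ets2-present cells. All 9 measured were under the mark on every array but PyMT Ets2-present, where 8 were. T and NK cell markers summed to 145 in PyMT Ets2-null and 133 in PyMT Ets2-present fibroblasts, and to 107 in normal Ets2-null and 102 in normal Ets2-present fibroblasts, with 9 of 10 under the mark on each array. In PyMT fibroblasts 1 of these 10 was at least 2-fold higher without Ets2, Cd3g (1.24), under the mark on all 4 arrays.

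Dendritic cell markers summed to 152 in PyMT Ets2-null and 275 in PyMT Ets2-present fibroblasts, and to 208 in normal Ets2-null and 178 in normal Ets2-present fibroblasts. Zbtb46, which reads above the mark in all 4 cultures, made up most of these sums; without it the PyMT values were 69.4 in Ets2-null and 69.9 in Ets2-present cells. Endothelial markers summed to 130 in PyMT Ets2-null and 104 in PyMT Ets2-present fibroblasts, and to 173 in normal Ets2-null and 130 in normal Ets2-present fibroblasts, with 0 of 7 past 2-fold in either kind. Without Kdr, the brightest of them, the sums were 109 in PyMT Ets2-null and 88.5 in PyMT Ets2-present fibroblasts. The normal sums were then lower, 61.5 in Ets2-null and 60.3 in Ets2-present cells. On each array 6 or 7 of these 7 markers were under the mark. The part of cells other than fibroblasts in the Serpinb levels was not tested, and in a bulk culture a change in the share of a cell type and one in RNA per cell cannot be told apart.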

How the data were processed

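Levels came from 1 table of 22690 probe sets by 4 arrays of an Affymetrix mouse GeneChip. The authors deposited log2 values made by RMA, with no version stated, after Trizol extraction and biotin labelling. Which arrays were processed together is not given in the sources used here, and scanner files were not used here, so detection calls were not made.

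Of these, 20393 had 1 gene symbol in the platform annotation, 691 had several and 1606 had none. Entrez IDs of 20364 matched the RefSeq annotation of GRCm38.p6 and 0 symbols were updated; that annotation gave names and gene order only. Where a gene had several probe sets, the one with the highest average was used. No filter on level was set for the counts and ranks, since a filter on the highest array would favour genes that differ. The SD between probe sets of 1 gene used only genes whose second-brightest probe set averaged at or above the mark. Differences are log2 levels subtracted, so that 1 unit is 2-fold. The script was tested on simulated data. No test was run, since each group had 1 array.

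The rule for naming genes took all members, Ets2 and the 5 nearest profiles of Serpinb1a and of Serpinb6b. It also took the highest and lowest gene of each list in each Ets2 difference. Some of those went unnamed in the lists of mast cell, neutrophil, T and NK cell, dendritic cell and endothelial markers. Other genes, among them Nqo2, Foxq1, 4933417A18Rik, Elane, Ctsg, Gzmb, Gzmc, Gzme, Gzmm, Serpinf1, Serpinh1 and further markers of cell types, were named outside this rule, with their values seen. The members and lists were chosen with earlier results of these data known. Promoter windows came from RefSeq, and pairs of them were aligned globally. Alternatives used limma 3.58.1 in R 4.3.3, and the rest ran in Python 3.11.15.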

Additional observations from a re-analysis of the deposited data

Results flagged for a closer look

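Serpinb9b and Serpinb6a had Ets2 differences of opposite sign in the 2 kinds of fibroblast. For Serpinb9b (1422668_at) it was 1.89 in PyMT and -0.78 in normal fibroblasts, and for Serpinb6a (1450138_a_at) 0.34 in PyMT and -0.44 in normal fibroblasts. With 1 array per group these differences between PyMT and normal fibroblasts were not tested, and for Serpinb6a both values were close to the disagreement between probe sets of 1 gene (SD 0.60 and 0.42).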

How the results depend on the processing

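The 8 alternatives were the mean over probe sets, leaving out probe sets ending in _s_at, _x_at or _a_at, filters on the mean at the 40th and 60th percentiles (4.63 and 6.78), raising low levels, and cyclic loess, quantile or median scaling. None turned the sign of a median over the members or moved it by more than the disagreement between probe sets, in any of the 5 differences. Medians ran from 1.82 to 1.92 for the Ets2 difference in PyMT and from 0.86 to 1.06 in normal fibroblasts, and 4 members were at least 2-fold higher in PyMT under all 8. In normal fibroblasts the count was 2 in place of 3 under both filters and with low levels raised, because Serpinb1b was left out or came to 0.845. The double difference of Serpinb1b, -1.39, was -0.79 with low levels raised, so that 0 members in place of 1 were 2-fold lower, and both filters left the gene out. With median scaling 3 members in place of 2 were at least 2-fold higher in the double difference, and the median of all genes in the PyMT Ets2 difference was 0.17 in place of 0.06. The filters kept 5 members, without Serpinb1b, and leaving out probe sets by their ending kept 5, without Serpinb6a. The difference of Serpinb1a between PyMT and normal Ets2-null fibroblasts took either sign (-0.14 to 0.01). No paired analysis was possible because each group had 1 array, and for the same reason no array could be left out.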
